A study of Mus musculus with 18 samples.

Results

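The genes described here are 10 markers of the Leydig and interstitial cells of the testis, the hormone gene Insl3, the steroidogenic genes Star, Cyp11a1, Hsd3b1 and Cyp17a1, the interstitial regulators Nr2f2, Pdgfra and Tcf4, and the collagen genes Col1a1 and Col3a1. They were listed by name as marks of stromal cells, so that their promoters could be examined in germ cell nuclei that had been sorted away from the stroma, and all 10 were found among 21887 coding genes on the 19 autosomes, X and Y. The measurement was H3K4me3, trimethylation of lysine 4 on histone H3, mapped with CUT&RUN, which tethers a nuclease to the antibody and releases the chromatin that carries the mark. Each library came from 4000 cryopreserved nuclei of Oct4-GFP positive prospermatogonia, the fetal male germ cells, of E17.5 mouse embryos, late in gestation. The KO libraries were from Tet1-/- embryos, which lack the 5-methylcytosine oxidase TET1, the HxD libraries from Tet1HxD/HxD embryos, whose TET1 is altered in the HxD motif of its catalytic centre and is known as catalytically inactive, and the WT libraries from Tet1+/+ embryos. There were 3 biological replicates per genotype, all cells carried the Oct4-GFP reporter, and all libraries carried 1 batch label. The number of embryos behind a replicate was not given in the sources used here. Of the 18 samples, the 9 H3K4me3 libraries were analysed, each through 1 deposited list of peaks, and the 9 IgG libraries were not analysed here.

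Leydig cells make the androgens and the insulin-like hormone that masculinise the fetus, starting from cholesterol that passes through a chain of mitochondrial and microsomal enzymes. They arise from interstitial progenitors that receive PDGF, hedgehog and Notch signals, and they lie outside the testis cords, surrounded by fibroblasts that lay down collagen. Inside the cords sit the germ cells with the Sertoli cells. H3K4me3 marks the start sites of active genes and also, in germ cells and stem cells, those of many silent genes with CpG-rich promoters, so that a peak at a start site does not by itself show that the gene is transcribed.

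The promoters differ in base composition, and 4 of them are shown because they span the range from the promoter with the most CpG dinucleotides to that with none. RefSeq promoter sequences on GRCm38.p6, the assembly of mm10, were given for 6 of the 10 genes, which were Insl3, Cyp11a1, Hsd3b1, Nr2f2, Pdgfra and Col3a1. The 250 bases before the annotated start are printed 5′ to 3′ on the strand of the gene, with CpG dinucleotides in capitals. They lie at chr8:71689002-71689251 on the plus strand for Insl3, chr9:57997774-57998023 on the plus strand for Cyp11a1, chr3:98859795-98860044 on the minus strand for Hsd3b1 and chr1:45311288-45311537 on the plus strand for Col3a1.
Insl3: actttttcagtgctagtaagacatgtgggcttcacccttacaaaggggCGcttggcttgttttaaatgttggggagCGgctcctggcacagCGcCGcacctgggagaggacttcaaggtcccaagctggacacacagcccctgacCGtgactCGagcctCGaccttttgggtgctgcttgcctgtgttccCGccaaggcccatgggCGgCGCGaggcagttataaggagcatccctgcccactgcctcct
Cyp11a1: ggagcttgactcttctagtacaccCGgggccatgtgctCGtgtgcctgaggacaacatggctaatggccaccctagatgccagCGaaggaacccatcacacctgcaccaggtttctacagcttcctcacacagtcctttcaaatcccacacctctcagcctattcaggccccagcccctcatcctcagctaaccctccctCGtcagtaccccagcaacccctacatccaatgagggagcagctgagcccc
Hsd3b1: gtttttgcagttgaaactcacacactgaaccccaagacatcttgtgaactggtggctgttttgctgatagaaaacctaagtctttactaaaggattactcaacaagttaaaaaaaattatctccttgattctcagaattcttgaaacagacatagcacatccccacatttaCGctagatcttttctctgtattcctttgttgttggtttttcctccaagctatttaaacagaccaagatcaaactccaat
Col3a1: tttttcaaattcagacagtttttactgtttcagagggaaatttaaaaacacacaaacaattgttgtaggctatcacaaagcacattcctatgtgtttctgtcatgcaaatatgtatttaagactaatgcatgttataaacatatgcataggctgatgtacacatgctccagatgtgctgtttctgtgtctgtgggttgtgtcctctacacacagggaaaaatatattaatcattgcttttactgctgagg

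A promoter was counted as marked when at least 1 bp of a called peak lay within 1 kb of the marked gene end, the end of the gene with more peak cover over the 9 libraries. By that count Insl3, Pdgfra and Tcf4 were marked in all 9 libraries, against 59.6% of all coding genes, and Cyp17a1, Hsd3b1 and Star were marked in none, against 21.4% of all coding genes. Cyp11a1 was marked in 8 libraries and missing in WT replicate 2, Nr2f2 was marked in 8 and missing in HxD replicate 3, and Col1a1 was marked in 8 and missing in KO replicate 1. Col3a1 was marked in WT replicate 3 only. The steroidogenic enzymes and the collagens were thus each divided, with 1 of 4 steroidogenic genes and 1 of 2 collagen genes marked in at least 3 libraries.

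Between 5 and 7 of the 10 genes were marked in every library. The KO replicates 1, 2 and 3 had 5, 6 and 6 of the 10 marked, the HxD replicates 6, 6 and 5, and the WT replicates 6, 5 and 7. In every library of a genotype the mark was present at 5 of the 10 genes in KO, 5 in HxD and 5 in WT, beside 64.0%, 64.6% and 67.6% of all coding genes. These counts rest on peaks that touch the window, since with a peak summit required within 1 kb they were 3 in KO, 3 in HxD and 2 in WT. In bulk nuclei, fewer marked cells of a type and less signal per cell cannot be told apart.

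**Figure D1:**
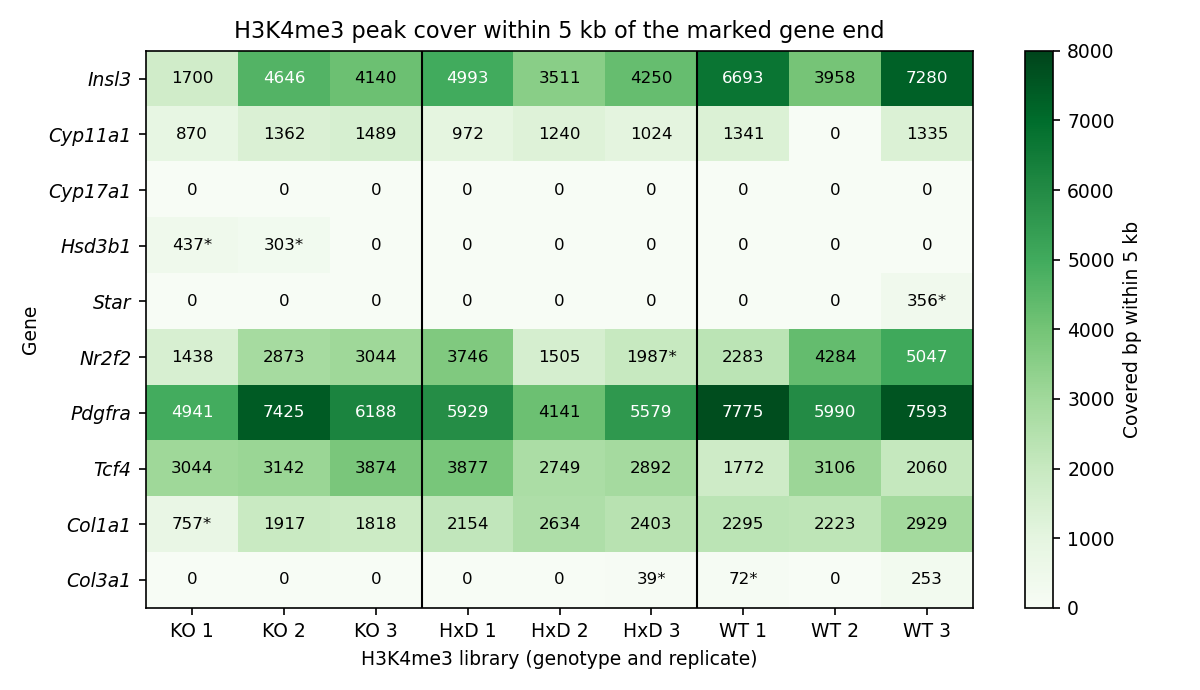
Covered bp (bases under a called H3K4me3 peak) within 5 kb of the marked gene end for the 10 genes (rows) in the 9 libraries (columns, replicate numbers beside the genotype), in shades on a linear scale. An asterisk marks cover with no peak within 1 kb of the end; the rows of Cyp17a1, Hsd3b1, Star and Col3a1 are at or near 0, and Pdgfra has the broadest cover, from 4141 to 7775 bp.

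Breadth, the covered bp within 5 kb of the marked end, was compared with limma over 16000 coding genes marked in at least 3 libraries, of which 6 were among the 10 described here. The authors' own fold at a peak summit is given as a description of each list. Across all tested genes limma called 1 gene narrower in KO than in WT, which is 0.00625%, and 0 broader at a Benjamini-Hochberg adjusted p under 0.05. It called 0 genes in either direction between HxD and WT and 0 between KO and HxD. With each library centred on its mean breadth, limma called 281 genes narrower and 183 broader in KO than in WT. None of the 6 genes was called by limma in any of the 3 comparisons, with or without that centring.

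At an unadjusted limma p under 0.05, KO was narrower than WT at Insl3 and Col1a1 and broader at Tcf4, beside 7.45% of all tested genes narrower and 6.76% broader. HxD was narrower than WT at Pdgfra, beside 9.04% of tested genes narrower and 1.75% broader. KO was narrower than HxD at Col1a1, beside 0.219% of tested genes narrower and 2.69% broader. None of the 6 genes had every KO library above every WT library, every HxD library above every WT library or every KO library above every HxD library, which was so at 8.49%, 3.62% and 7.19% of tested genes. For KO minus HxD the limma differences were -756 bp at Insl3, 162 bp at Cyp11a1, 39 bp at Nr2f2, 968 bp at Pdgfra and 181 bp at Tcf4, with a Benjamini-Hochberg adjusted p of 1 at each. Leaving out 1 library gave 37.3 to 347 bp at Cyp11a1 and 348 to 1590 bp at Pdgfra, with a change of sign at the other 3.

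Insl3, the hormone gene whose product drives the first phase of testis descent, lies on chromosome 8 from 71689252 to 71690577. Its breadth was 1700, 4646 and 4140 bp in KO replicates 1, 2 and 3, 4993, 3511 and 4250 bp in HxD replicates and 6693, 3958 and 7280 bp in WT replicates. WT replicates 1 and 3 stood above all other libraries, KO replicate 1 below all others, and the genotypes overlapped through WT replicate 2. Mean breadth was 3495 ± 1575 bp in KO, 4251 ± 741 bp in HxD and 5977 ± 1773 bp in WT (SD, n = 3 each). The limma difference was -2482 ± 890 bp (SE) for KO minus WT (adjusted p = 0.229) and -1726 ± 890 bp for HxD minus WT (adjusted p = 0.509). KO minus WT was -1584 bp without KO replicate 1 and -3491 bp without WT replicate 2. HxD minus WT was -2735 bp without WT replicate 2 and -1074 bp without WT replicate 3. In a 2 kb window the differences were -774 and -579 bp.

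Most of that cover was not at the Insl3 start itself. Within 1 kb of the start the cover was 378, 1137 and 789 bp in KO, 1208, 307 and 1443 bp in HxD and 2001, 514 and 1632 bp in WT, and 22.9% of the cover over all libraries lay there. The rest formed a peak group on either side in every library, as the peak maps show. The coding gene Jak3, from 71676383 to 71690577, spans Insl3 and ends with it, 1325 bp past the Insl3 start. B3gnt3 has an end 2121 bp from the Insl3 start, while its own annotated start is 12548 bp away. The highest fold within 5 kb was 7.93, 14.0 and 15.4 in KO, 13.3, 10.6 and 11.8 in HxD and 14.0, 8.66 and 14.3 in WT. It belonged to the peak at the start in KO replicate 1 and WT replicate 1 only, and elsewhere to the peak group before the start. The peak within 1 kb of the start had folds of 7.93, 10.8 and 4.54 in KO, 9.70, 3.43 and 7.77 in HxD and 14.0, 6.19 and 11.7 in WT.

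**Figure D2:**
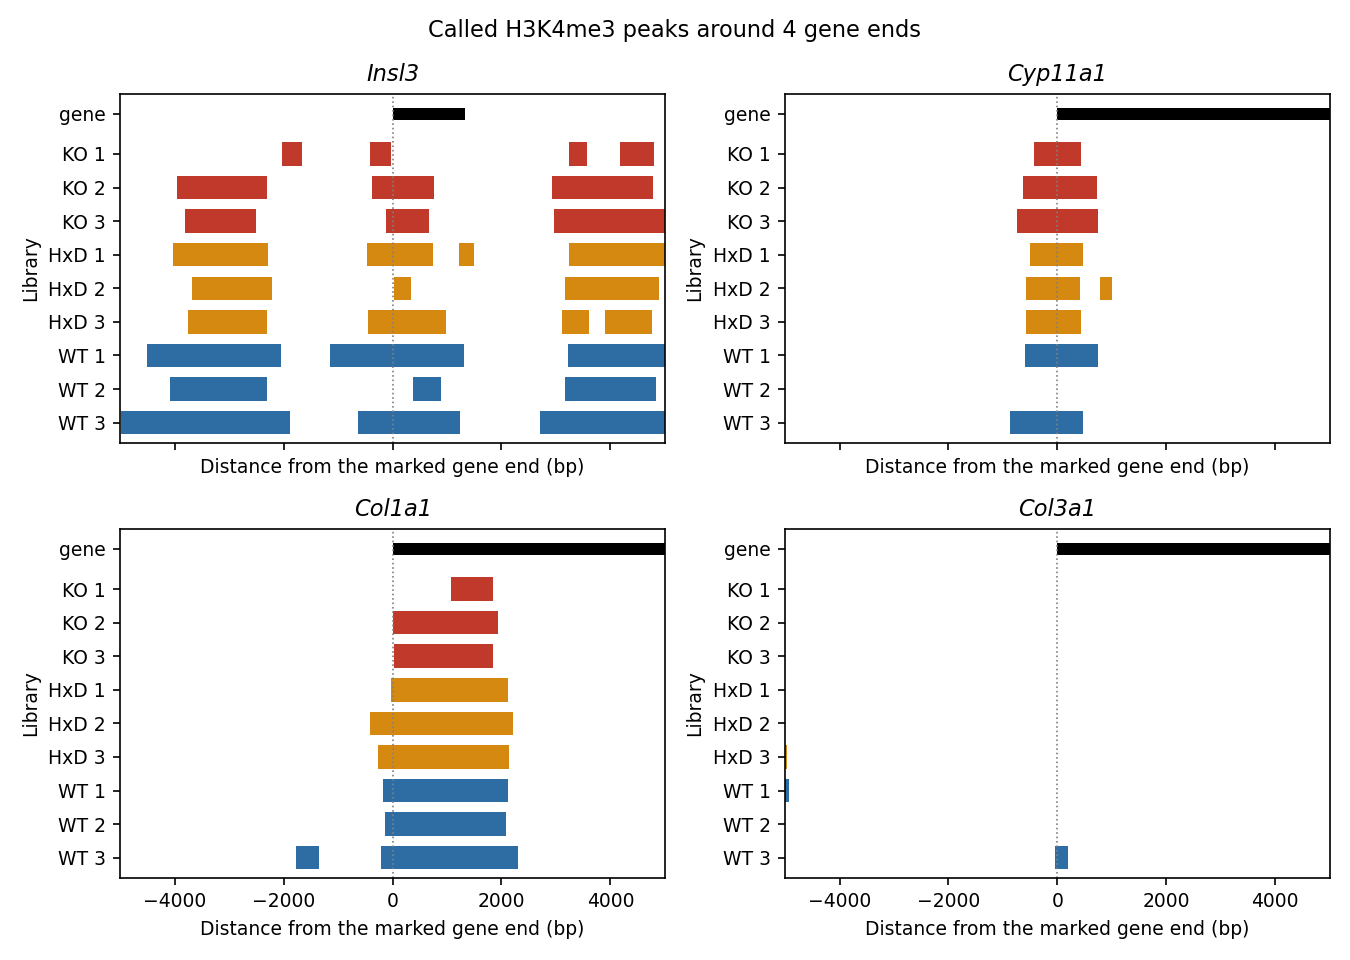
Called H3K4me3 peaks (coloured bars, 1 row per library) by distance in bp from the marked gene end, with the gene as a black bar that runs to the right, for Insl3, Cyp11a1, Col1a1 and Col3a1; bars are cut at the window's edge. Insl3 has a peak group over its start and another on each side, Cyp11a1 has 1 peak group over its start that is missing in WT replicate 2, Col1a1 has a peak that begins near the gene end and runs into the gene, and Col3a1 has a peak over its start in WT replicate 3 only.

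Among the steroidogenic genes, Cyp11a1, which encodes the enzyme that cleaves the side chain of cholesterol and so commits it to steroids, was the marked one. It lies on chromosome 9 from 57998024 to 58027031. Its breadth was 870, 1362 and 1489 bp in KO, 972, 1240 and 1024 bp in HxD and 1341, 0 and 1335 bp in WT. Apart from the empty WT replicate 2 the libraries lay in 1 narrow range, and the genotypes overlapped. The cover formed a single compact group, with 99.9% of it within 1 kb of the start. Mean breadth was 1240 ± 327 bp in KO, 1079 ± 142 bp in HxD and 892 ± 772.5 bp in WT (SD, n = 3 each).

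The limma difference at Cyp11a1 was 348 ± 347 bp for KO minus WT (adjusted p = 0.679) and 187 ± 347 bp for HxD minus WT (adjusted p = 0.891). Both signs rested on WT replicate 2, without which they were -97.7 and -259 bp, and leaving out another library gave values up to 573 and 411 bp. The highest fold was 7.33, 18.4 and 12.8 in KO, 16.7, 4.59 and 10.96 in HxD, and 12.4 and 8.42 in WT replicates 1 and 3. A second annotated start of Cyp11a1 at 58014952 had a peak within 1 kb in WT replicate 1 only, of 272 bp, and its 250 bases hold 1 CpG.

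Inside Cyp11a1, a further peak region at chr9:58003657-58005107, 5633 bp from the gene start, was noticed after its values were seen. It covered 391, 0 and 368 bp in KO, 281, 0 and 259 bp in HxD and 1196, 885 and 997 bp in WT. Every WT library was above every KO and every HxD library, and WT replicate 2, with no peak at the start, had one here. The difference was -773 bp for KO minus WT and -846 bp for HxD minus WT, each with an exact two-sided permutation p of 0.1, the smallest that 3 against 3 libraries allow. Among 15454 peak regions inside coding genes with a peak in at least 3 libraries, every KO library was below every WT library at 22.8%, and every HxD library below every WT library at 26.2%. The WT lists were also the longest, with 83586 to 128701 peaks, and the part of list length in this difference was not tested.

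Star, Hsd3b1 and Cyp17a1 carry cholesterol into the mitochondrion, turn pregnenolone into progesterone and make the precursors of androgens. None had a peak within 1 kb in any library. Cyp17a1, on chromosome 19 from 46667165 to 46673000, had 0 bp within 5 kb in all 9 libraries, no peak inside the gene, and its nearest peak 16164 to 16903 bp from a gene end. Star lies on chromosome 8 from 25808474 to 25815982, with an end of the coding gene Lsm1 4499 bp before its marked end. Star had 356 bp inside the gene in WT replicate 3 with a fold of 3.71. In the other 8 libraries Star had 0 bp, and the nearest peak lay 21500 to 22191 bp from a gene end.

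Hsd3b1, on chromosome 3 from 98842356 to 98859794, had 437 and 303 bp within 5 kb in KO replicates 1 and 2, and 0 bp in KO replicate 3, all HxD and all WT libraries. Those 2 peaks had folds of 5.58 and 4.04, at the 13.3 and 1.95 percentiles of the highest folds within 5 kb of a gene end in their own lists. They were 2360 and 3900 bp from a gene end and in different places, since the KO replicate 2 peak was inside the gene and that of KO replicate 1 was not.

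Of 21 other genes of the steroid pathway and of Leydig cells, 12 were marked in all 9 libraries and 5 in none, and 16 were tested. The shares marked in all 9 and in none are 57.1% and 23.8%, beside 59.6% and 21.4% of all coding genes. limma called 0 of the 16 in any comparison, and 0 reached an unadjusted p under 0.05. Gata6, a zinc finger regulator of steroidogenic genes, and Nr5a1, the nuclear receptor that drives steroidogenic gene expression, had the broadest cover of the list, with means over the 9 libraries of 6426 and 4037 bp. Cyp11b1 and Hsd11b1, enzymes of glucocorticoid metabolism, had the least, with 26.7 and 37.7 bp. Nr5a1 breadth was 3605 ± 1168 bp in KO, 4249 ± 1117 bp in HxD and 4256 ± 788 bp in WT (SD, n = 3 each).

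The 3 interstitial regulators had cover within 5 kb of the marked end in all 9 libraries. Pdgfra, the PDGF receptor needed by Leydig cell progenitors, lies on chromosome 5 from 75151322 to 75198206. Its breadth was 4941, 7425 and 6188 bp in KO, 5929, 4141 and 5579 bp in HxD and 7775, 5990 and 7593 bp in WT. All 3 HxD libraries lay below all 3 WT libraries, which was so at 13.3% of tested genes, and KO overlapped both. Means were 6185 ± 1242 bp in KO, 5216 ± 948 bp in HxD and 7119 ± 982 bp in WT (SD, n = 3 each).

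The limma difference at Pdgfra was -935 ± 858 bp for KO minus WT (adjusted p = 0.649) and -1903 ± 858 bp for HxD minus WT (adjusted p = 0.447). KO minus WT was -313 bp without KO replicate 1, -1555 bp without KO replicate 2, -607 bp without WT replicate 1, -1499 bp without WT replicate 2 and -147 bp with stricter peaks. HxD minus WT was -952 bp with stricter peaks and -928 bp with lists of equal length. The 95% interval for HxD minus WT ran from -3738 to -68.0 bp before adjustment. The annotated start of Pdgfra, at 75152251, lies inside the marked end and had a peak within 1 kb in all 9 libraries. The highest fold was 10.7, 20.4 and 25.1 in KO, 16.5, 15.5 and 11.6 in HxD and 20.5, 11.5 and 13.8 in WT, at the 45.9 to 99.4 percentiles of the highest folds near gene ends in their own lists.

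Nr2f2, an orphan nuclear receptor of interstitial progenitors, lies on chromosome 7 from 70351946 to 70366746, on the minus strand. Its marked end was the far end and not the annotated start. Breadth at the marked end was 1438, 2873 and 3044 bp in KO, 3746, 1505 and 1987 bp in HxD and 2283, 4284 and 5047 bp in WT. The genotypes overlapped, with means of 2452 ± 882 bp in KO, 2413 ± 1180 bp in HxD and 3871 ± 1427 bp in WT (SD, n = 3 each). The limma difference was -1420 ± 709 bp for KO minus WT (adjusted p = 0.380) and -1459 ± 709 bp for HxD minus WT (adjusted p = 0.480). KO minus WT was -913 bp without KO replicate 1, -2214 bp without WT replicate 1 and -832 bp without WT replicate 3, and HxD minus WT was -2253 bp without WT replicate 1 and -871 bp without WT replicate 3. With lists of equal length they were -883 and -922 bp, and in a 2 kb window 37 and -648 bp.

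At the annotated start of Nr2f2 the cover within 5 kb was 1604, 4376 and 4957 bp in KO, 4190, 3079 and 4028 bp in HxD and 3352, 3020 and 4773 bp in WT. There the genotypes overlapped, with means of 3646 ± 1792 bp in KO, 3766 ± 600.2 bp in HxD and 3715 ± 931 bp in WT (SD, n = 3 each). The limma difference was -69.3 ± 752 bp for KO minus WT (adjusted p = 0.980) and 50.7 ± 752 bp for HxD minus WT (adjusted p = 0.988). Within the gene, peaks covered 5010, 5410 and 7134 bp in KO, 6308, 5476 and 5226 bp in HxD and 4749, 4275 and 6364 bp in WT. Inside the gene all KO and all HxD libraries lay above WT replicates 1 and 2, and WT replicate 3 lay above all but KO replicate 3. Long peaks there ran from 70357872 to 70362872 in KO replicate 3 (fold 32.0) and from 70357663 to 70362567 in HxD replicate 2 (fold 30.3). In WT replicate 3 such a peak ran from 70357578 to 70362973 (fold 24.7). The 5 kb window of the annotated start cut these peaks, and that of the marked end did not reach them.

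Tcf4, a basic helix-loop-helix transcription factor, lies on chromosome 18 from 69343429 to 69687967. Its breadth was 3044, 3142 and 3874 bp in KO, 3877, 2749 and 2892 bp in HxD and 1772, 3106 and 2060 bp in WT. Tcf4 and Cyp11a1 were the 2 of the 6 tested genes with a higher mean in both mutants than in WT. At Tcf4 the means were 3353 ± 454 bp in KO, 3173 ± 614 bp in HxD and 2313 ± 702 bp in WT (SD, n = 3 each), although WT replicate 2 overlapped both. The limma difference was 1041 ± 464 bp for KO minus WT (adjusted p = 0.328) and 860 ± 464 bp for HxD minus WT (adjusted p = 0.531). With stricter peaks they were 1758 and 1578 bp, with lists of equal length 2039 and 1858 bp, and in a 2 kb window 593 and 445 bp. Without HxD replicate 1, HxD minus WT was 508 bp. The highest fold was 15.7, 16.4 and 24.3 in KO, 20.0, 15.6 and 8.73 in HxD and 9.74, 9.64 and 9.93 in WT. Further inside this long gene another peak region, 248446 bp from its start, was present in all 9 libraries, and 5 to 23 peaks per library lay within the gene.

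**Figure D3:**
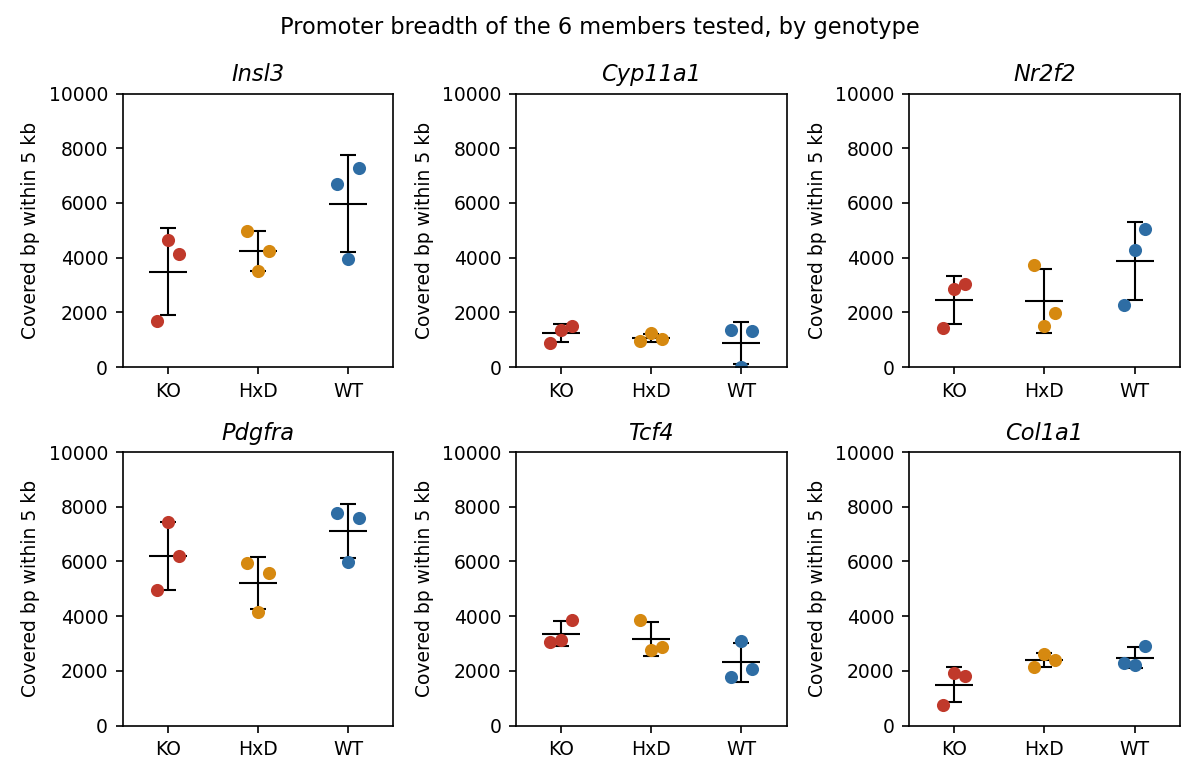
Breadth (covered bp within 5 kb of the marked gene end) of the 6 tested genes by genotype, KO, HxD and WT from left to right; points are the 3 libraries of a genotype, the long line is the mean and the bars are ± 1 SD. Col1a1 has its lowest 3 libraries in KO, at 757 to 1917 bp, and Tcf4 has its lowest 2 in WT, at 1772 and 2060 bp.

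Of 24 other regulators of the interstitial lineage, from the hedgehog, Notch and progenitor programmes, 19 were marked in all 9 libraries and 0 in none. These are 79.2% and 0%, beside 59.6% and 21.4% of all coding genes. limma called 0 of the 23 tested. At an unadjusted p under 0.05 KO was narrower than WT at 2 and broader at 2, beside 7.45% and 6.76% of all tested genes, and HxD narrower than WT at 1, beside 9.04%. Vcam1 is the HxD gene and 1 of the 2 narrower KO genes, and it entered the test only through the 3 WT libraries in which it was marked, so its difference was set by that filter. Hes1, a target of Notch signalling, had the broadest cover, at 6178 bp averaged over the 9 libraries. Vcam1, an adhesion molecule, had 0 bp in all KO and all HxD libraries and 664 ± 291 bp in WT (SD, n = 3). Every KO library was below every WT library at 9.08% of tested genes, and every HxD library at 13.3%. Inhba, the activin subunit, had 202 ± 205 bp in KO, 444 ± 189 bp in HxD and 643 ± 156 bp in WT (SD, n = 3 each).

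The collagen genes differed from each other. Col1a1, which encodes a chain of type I collagen, lies on chromosome 11 from 94936224 to 94953042. Its breadth was 757, 1917 and 1818 bp in KO, 2154, 2634 and 2403 bp in HxD and 2295, 2223 and 2929 bp in WT. All 3 KO libraries lay below all HxD and all WT libraries, which was so against WT at 9.08% and against HxD at 0.713% of tested genes, while HxD and WT overlapped. Means were 1497 ± 643 bp in KO, 2397 ± 240 bp in HxD and 2482 ± 388 bp in WT (SD, n = 3 each).

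At Col1a1 the limma difference was -985 ± 377 bp for KO minus WT (adjusted p = 0.260) and -85.3 ± 377 bp for HxD minus WT (adjusted p = 0.961). For KO minus HxD it was -900 ± 377 bp, with a limma p of 0.0310 before and 1 after Benjamini-Hochberg adjustment. Leaving out KO replicate 1, the lowest library and the one without a peak within 1 kb, the difference from WT was -615 bp and that from HxD was -529.5 bp. KO replicate 1 also had the fewest marked promoters of all 9 libraries, 14574, and the smallest mean breadth, 1680 bp, and the part of these in the Col1a1 values was not tested. The highest fold was 4.99, 10.4 and 15.4 in KO, 15.3, 11.7 and 14.4 in HxD and 17.52, 10.9 and 23.6 in WT.

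Col3a1, which encodes type III collagen, lies on chromosome 1 from 45311538 to 45349706. It had 0 bp within 5 kb in all KO libraries, 39 bp in HxD replicate 3 and 0 bp in the other HxD libraries, and 72 bp in WT replicate 1, 0 bp in WT replicate 2 and 253 bp in WT replicate 3. Inside the gene, however, a peak region at chr1:45331081-45332458, 19543 bp from its start, was present in all 9 libraries. It covered 479, 1137 and 482 bp in KO, 1015, 266 and 1034 bp in HxD and 1315, 1077 and 1299 bp in WT. All 3 HxD libraries lay below all 3 WT libraries, while KO overlapped WT, and the exact two-sided permutation p was 0.1 for HxD minus WT and 0.2 for KO minus WT. Of the 15454 peak regions inside coding genes, 26.2% had every HxD library below every WT library. That region was singled out after its values were seen.

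Of 15 other genes of the stromal matrix, 8 were marked in all 9 libraries and 2 in none. These are 53.3% and 13.3%, beside 59.6% and 21.4% of all coding genes. limma called 0 of the 10 tested. At an unadjusted p under 0.05 KO was narrower than WT at 4 and broader at 0, beside 7.45% and 6.76% of all tested genes. HxD was narrower than WT at 1, beside 9.04%, and KO narrower than HxD at 1, beside 0.219%. Bgn, the proteoglycan biglycan, is 1 of the 4 genes narrower in KO than in WT and the gene narrower in KO than in HxD. It averaged 0 bp in KO, 626 bp in HxD and 960 bp in WT. Bgn entered the test only through the HxD and WT libraries in which it was marked. Its KO differences therefore cannot be separated from the filter on marked libraries. Fbn1, the fibrillin gene, and Col4a1, of basement membrane collagen, were the broadest at 2703 and 2679 bp over the 9 libraries, and Col6a3, a collagen chain, and Dcn, the proteoglycan decorin, the least covered at 7.56 and 50.2 bp.

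Markers of the labelled cells and of other cell types were counted from the same lists. Of 21 germ cell markers 14 were marked in all 9 libraries, among them Pou5f1, Dazl and Ddx4, and 1 in none, Piwil2. These are 66.7% and 4.76%, beside 59.6% and 21.4% of all coding genes. Of 13 Sertoli markers 10 were marked in all 9 and 0 in none, which is 76.9% and 0%. For 11 endothelial and blood markers the counts were 6 and 4, which is 54.5% and 36.4%. For 23 markers of organs other than testis they were 8 and 6, which is 34.8% and 26.1%. limma called 0 of the 20, 12, 6 and 11 tested genes of these 4 lists in any comparison. At an unadjusted p under 0.05, KO was narrower than WT at 2 and broader at 5 germ cell markers, and narrower at 1 Sertoli marker, 3 endothelial and blood markers and 3 markers of other organs, beside 7.45% narrower and 6.76% broader over all tested genes. HxD was broader than WT at 2 germ cell markers and narrower at 3 Sertoli markers, 2 endothelial and blood markers and 3 markers of other organs, beside 9.04% narrower and 1.75% broader over all tested genes. The blood cell genes Ptprc, Csf1r and Adgre1 had 0 bp in every library. The heart gene Tnni3 had a mean of 4052 bp over the 9 libraries, against 4202 bp for Utf1 and 3399 bp for Dppa3, the broadest of the germ cell markers. Peaks within 1 kb of the marked end were thus present at genes of cell types that the sort should lack. They were also present at genes of organs that the testis does not contain. Whether these marked ends were annotated starts, or lay near the promoter of another gene, was not examined for these lists. The share of stromal nuclei was not tested.

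**Figure D4:**
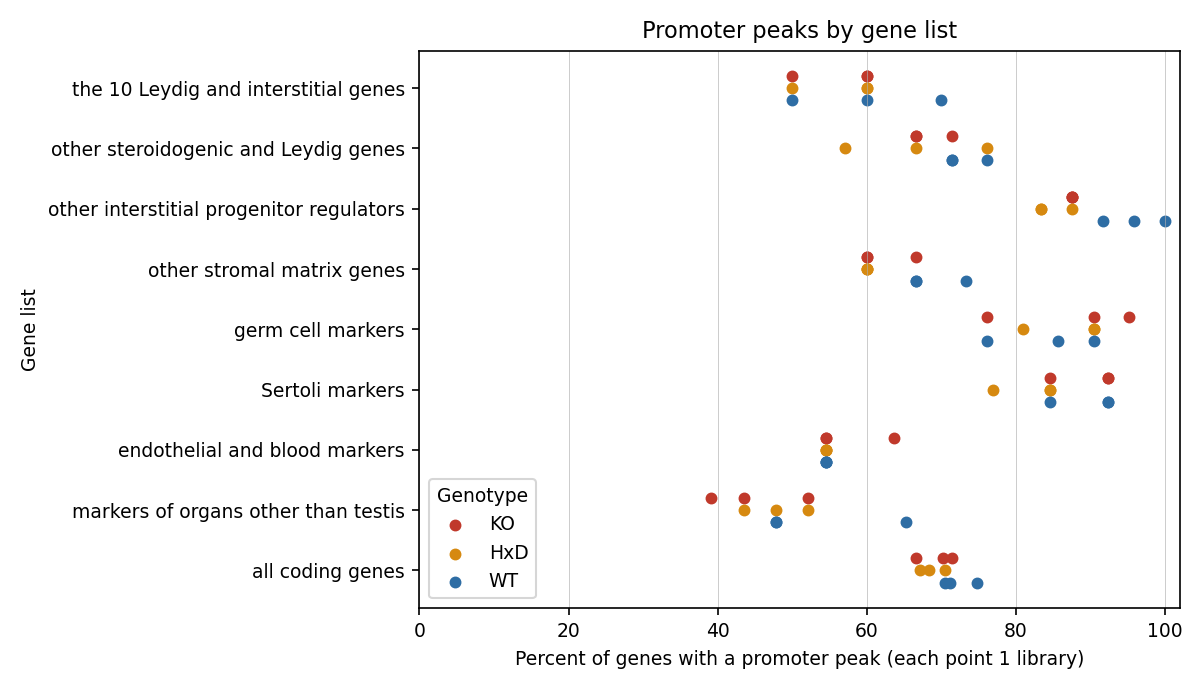
Percent of the genes of each list with an H3K4me3 peak within 1 kb of the marked gene end, 1 point per library (KO, HxD and WT from top to bottom within a list; points overlap where libraries share a value). The 10 Leydig and interstitial genes lie at 50% to 70%, all coding genes at 66.6% to 74.8%, the markers of other organs at 39.1% to 65.2%, and the germ cell markers at 76.2% to 95.2%.

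CpG number went with peak presence over all coding genes. Of 21263 coding gene starts in the promoter table, those with 0 to 2 CpG in the 250 bases before the start were marked in all 9 libraries at 5.54% and in none at 73.9%, and those with 11 to 20 CpG at 91.4% and 0.561%. The 6 genes followed this order with exceptions. Insl3, with 11 CpG, was marked in 9 libraries, and Pdgfra and Cyp11a1, with 4 each, in 9 and 8, where 26.5% of starts with 3 to 5 CpG were marked in all 9 and 40.2% in none. Hsd3b1, with 1 CpG, and Col3a1, with 0, were marked in 0 and 1 library, and Nr2f2, with 1, had a peak within 1 kb of its annotated start in 6.

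Among short motifs sought on both strands of the same 250 bases, AAGGTCA, a site of the NR5A1 receptor, was in none of the 6 genes and in 3.59% of all coding promoters. TATAAA was in Col3a1 alone of the 6, with bases at -117 to -112 from the start, and in 11.6% of promoters. CCAAT was in Cyp11a1, Hsd3b1 and Nr2f2 and in 35.4% of promoters. A match is a run of letters and not evidence of binding.

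**Figure D5:**
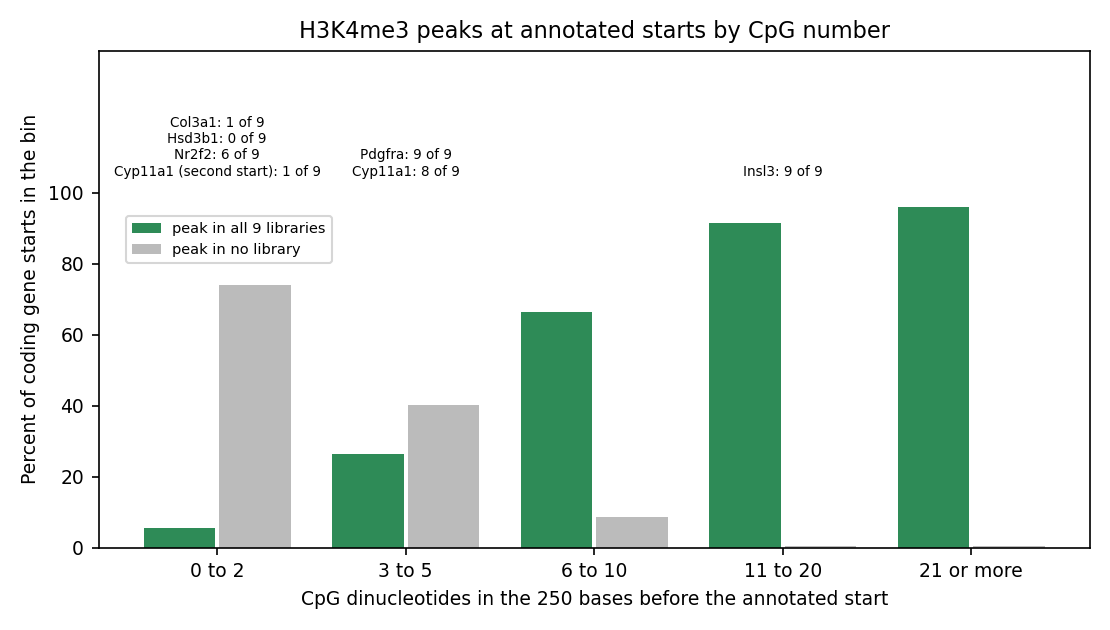
Percent of coding gene starts with an H3K4me3 peak within 1 kb in all 9 libraries (green) and in no library (grey), in bins by the number of CpG dinucleotides in the 250 bases before the annotated start. Names above the bars give the Leydig and interstitial genes in each bin with the number of libraries that had a peak there, from 0 for Hsd3b1 with 1 CpG to 9 for Insl3 with 11 CpG and Pdgfra with 4.

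The 10 genes together covered 13187, 21668 and 20553 bp in KO, 21671, 15780 and 18174 bp in HxD and 22231, 19561 and 26853 bp in WT. Their mean as a percent of the mean of all tested genes in the same library was 78.5%, 99.1% and 86.3% in KO, 99.0%, 89.2% and 104% in HxD and 116%, 103% and 115% in WT. WT replicate 2 overlapped HxD replicate 3, and the KO libraries lay below all WT libraries on that scale. In bp, KO replicates 2 and 3 lay above WT replicate 2. By breadth, every KO library was below every WT library at 9.08% of single tested genes. How often a sum over 10 genes separates in this way was not tested. The sum is a description of genes chosen by name, most of it from Pdgfra and Insl3, at each of which KO and WT overlapped. The lists held 69901 to 80232 peaks in KO, 49624 to 67925 in HxD and 83586 to 128701 in WT, and the mean breadth of the tested genes was 1680 to 2382 bp in KO, 1744 to 2189 bp in HxD and 1896 to 2334 bp in WT.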

How the data were processed

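The submitters' processing notes name mm10, MACS2 2.1.0, Bowtie2 2.5.0, Trim Galore, deepTools 3.5.1, SAMtools 1.16.1 and bedtools 2.27.1. What each did, and which control served in peak calling, was not given in the sources used here. Deposited narrow peak lists, 1 per library, give the authors' score, fold over background as a linear ratio, −log10 p and −log10 q, and the offset of the summit (other). Folds described peaks, and −log10 q filtered or ranked them; the score and the −log10 p were not used. The lists hold no read counts, so the depth is unknown. No 2 lists shared over 6 identical peaks.

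Genes came from RefSeq on GRCm38.p6, by symbol. A gene's marked end is the end with more cover within 1 kb over the 9 libraries. Breadth was fitted with limma 3.58.1 in R 4.3.3 (eBayes with trend on the bp of all 9 libraries, Benjamini-Hochberg over 16000 genes, threshold 0.05), after a check on simulated data. Single regions were compared by exact permutation tests. Other steps used Python 3.11.15, numpy 2.4.6 and pandas 2.3.3. The alternatives were a replicate block, each library left out, peaks with a −log10 q of at least 5, lists cut to 49624 peaks, a 2 kb window, centring, no filter and the annotated start.

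Members and lists were chosen with earlier results of these data known. All 10 genes are named, and from each other list the 2 broadest and 2 narrowest, with coding neighbours within 5 kb and the 3 genes most like the sum of the 10. 1 gene that the rule names is not reported here. Col3a1, Cyp11a1, Nr2f2 and Tcf4 regions inside genes, and Piwil2, Pou5f1, Dazl, Ddx4 and Bgn, were named after their values were seen.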

Additional observations from a re-analysis of the deposited data

How the results depend on the processing

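None of the 6 tested genes was called by limma under any alternative. Of 282 alternative values of their 18 differences, 261 kept the sign and 21 changed it. The smallest limma adjusted p among them was 0.0567, at Insl3 for KO minus WT. The same replicate numbers did not pair the libraries (correlations of deviations from -0.236 to 0.0798), and with the replicate block limma called 0 genes in each of the 3 comparisons. Over all genes, KO minus WT had 1 call. It had 0 to 3 when 1 library was left out (3 without KO replicate 1), 0 with stricter peaks, 283 with lists of equal length (52 narrower, 231 broader), 0 with a 2 kb window, 464 with centring, 92 with no filter and 6 at annotated starts. HxD minus WT had 0 calls, and 0 to 25 when 1 library was left out (25 without KO replicate 1), 4 with equal lengths, 55 with centring (43 narrower, 12 broader) and 85 with no filter. KO minus HxD had 0 under all of these. Genes marked in every library of a genotype were 3 in KO, 3 in HxD and 2 in WT by summit, 3 in each at annotated starts (of 6 genes), 3 in HxD with stricter peaks and 2 in WT with equal lengths. Signs changed for Cyp11a1 KO minus WT (-97.7 to 573 bp with 1 library left out) and HxD minus WT (-259 to 411), Nr2f2 KO minus WT with a 2 kb window (37 bp) and HxD minus WT at the annotated start (50.7 bp). They also changed for Col1a1 HxD minus WT (-215 to 138 bp with 1 library left out, 52.7 with stricter peaks, 52.7 with equal lengths, 60.9 centred). For KO minus HxD, leaving out 1 library gave -1331 to 142 bp at Insl3, -415 to 706 at Nr2f2 and -79.7 to 533 at Tcf4. Centring gave -20.5 bp at Cyp11a1, -143 at Nr2f2 and -1.45 at Tcf4, the annotated start -120.0 at Nr2f2, and equal lengths -232 at Pdgfra. Causes were not tested. Peak lists carry no depth, so absent peaks near the calling threshold cannot be weighed.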

Other observations

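Of all other coding genes, the 3 whose breadth over the 9 libraries was most like the sum over the 10 Leydig and interstitial genes were Nrtn, the growth factor neurturin, with a Pearson correlation of 0.990, and the predicted genes LOC108167320 and Gm52523, with 0.987 and 0.982. The sum over all tested genes had 0.782 with the same 9 values. The likeness was sought over all tested genes and 9 libraries, and each library's list length enters every gene's value, so it is a description only.

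Mean breadth was compared over whole lists as a description. The shares of all coding genes with a lower or higher mean were not counted, so no count below can be called particular to its list. Over the 16000 tested genes the median difference was 45 bp for KO minus WT and -125 bp for HxD minus WT. For KO against WT it was lower at 6 and higher at 3 of the 10 Leydig and interstitial genes, lower at 7 and higher at 14 of 21 germ cell markers, lower at 8 and higher at 5 of 13 Sertoli markers, lower at 7 and higher at 1 of 11 endothelial and blood markers, and lower at 17 and higher at 4 of 23 markers of other organs. For HxD against WT it was lower at 6 and higher at 2 of the 10, lower at 10 and higher at 11 of the germ cell markers, lower at 9 and higher at 3 of the Sertoli markers, lower at 7 and higher at 1 of the endothelial and blood markers, and lower at 16 and higher at 2 of the markers of other organs. The rest of each list had equal means. The median difference in the same order of lists was -114, 307, -51.7, -435 and -336 bp for KO minus WT, beside 0 bp for all coding genes. It was -90.3, 34, -542, -355 and -352 bp for HxD minus WT, beside -80.7 bp for all coding genes. For KO against WT, the 21 other steroidogenic and Leydig genes were lower at 13 and higher at 8 (median -70.3 bp). The 24 other interstitial regulators were lower at 11 and higher at 13 (62.7 bp). The 15 other stromal matrix genes were lower at 12 and higher at 3 (-222 bp). For HxD against WT, in that order, they were lower at 15, 14 and 14 and higher at 5, 10 and 0. The medians were -232, -206 and -334 bp.

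Single genes went both ways within a list. The germ cell gene Utf1 averaged 4780 ± 404 bp in KO, 4197 ± 519 bp in HxD and 3629 ± 455 bp in WT, while Piwil4, a gene of the piRNA pathway, averaged 224 ± 388 bp in KO, 686 ± 290 bp in HxD and 1038 ± 493 bp in WT (SD, n = 3 each). Flt1, a receptor for vascular endothelial growth factor, averaged 2571 ± 907 bp in KO, 2686 ± 43.7 bp in HxD and 3854 ± 86.6 bp in WT, while Pecam1, an endothelial adhesion molecule, averaged 746 ± 308 bp in KO, 171 ± 296 bp in HxD and 526 ± 636 bp in WT (SD, n = 3 each). limma called 0 of the first 3 in any comparison, Pecam1 was not tested, and Piwil4 and Pecam1 were chosen after their values were seen.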
